A study of Mus musculus with 2 samples.

Results

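The WNT ligands, the frizzled receptors and the secreted proteins that restrain them were followed through mouse skin in a testosterone model of androgenetic alopecia (AGA). The members were chosen by symbol: every measured gene named Wnt, Fzd, Dkk or Sfrp followed by a number, together with Wif1, Notum, Frzb, Axin2 and Nkd1. This gave 43 of the 32285 genes in the tables, of which 19 encode ligands, 10 receptors, 10 secreted inhibitors and 3 feedback genes, and 1 is a transcript on the opposite strand beside Fzd10 (Fzd10os). Dorsal skin of male C3H/HeN mice was shaved at 7 weeks of age and collected at 9 weeks of age. The TP mice received testosterone propionate under the skin at 0.5 mg per day, and the control mice received vehicle. Skin of 15 mice was pooled per group, digested with collagenase D, freed of red blood cells and debris, and sequenced as 1 single-cell library per group with a kit that reads the 3′ end of each transcript. Each group is therefore 1 sample, the mice of a pool cannot be separated, no difference has a replicate check, and no test between groups was possible. The group given TP and an antibody is not analysed here.

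WNT proteins are secreted ligands that bind frizzled receptors on the cell surface. In the canonical branch this stabilises β-catenin, which enters the nucleus and works with TCF and LEF factors to switch on target genes. Several targets feed back on the pathway: Axin2 is part of the complex that degrades β-catenin, Nkd1 binds Dishevelled inside the cell, and Notum is a secreted enzyme that removes the lipid WNT proteins need for binding. Outside the cell, WIF1 and the secreted frizzled-related proteins (SFRP, with Frzb as one of them) bind the ligands, and most Dickkopf (DKK) proteins bind the LRP co-receptors. In the hair follicle the pathway is known for its part in starting and maintaining the growth phase, with signals passing between the dermal papilla at the base of the follicle and the matrix keratinocytes around it.

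After filtering, the control library held 39076 cells and 105889921 molecules counted by their unique identifiers (UMIs), and the TP library held 18542 cells and 133700245 UMIs. Before filtering, 3465 of 45709 barcodes of control and 5871 of 25931 of TP exceeded the limit of 10% mitochondrial UMIs, and the part of cell quality in the differences was not tested. The median cell had 2046 UMIs in control and 4842 in TP, and 182 cell barcodes occurred in both libraries. Levels are given as UMIs per 1000000 UMIs of the same cells (CPM) with exact Poisson 95% intervals, and ratios are TP over control with exact conditional binomial 95% intervals. These intervals cover counting error only. A gene was called where its ratio was at least 2 or at most 0.5 and it had at least 50 UMIs over both libraries. Cells were grouped without using the members, and 40 of 46 clusters took 1 of 18 class names from marker genes. In the class called dermal papilla cell-like (DPC-like), all 10 DPC markers were at their highest level among the classes in both libraries, for example Corin at 2772 CPM in control against 1456 in TP. The libraries differed in their mixture of cells: inner root sheath-like cells made up 21.3% of control and 6.60% of TP, hair matrix-like cells 4.29% and 1.45%, and basal cells of the interfollicular epidermis (IFE basal-like) 7.91% and 18.1%. The inner root sheath-like class took in a cluster of 2661 and 268 cells led by Knl1, Kif14 and Aspm. Its marker score was 1.30, with none of the class markers among its 10 leading genes. With finer clustering (resolution 2) a cluster led by Knl1, Aspm and Neil3 carried no name. With coarser clustering (resolution 0.5) the hair matrix-like cluster held 4065 and 465 cells, with Knl1 among its leading genes.

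Over the whole libraries, 38 of the 43 members reached 50 UMIs. Of these, 2 were called higher in TP, beside 8.11% of all 17552 genes tested, and 7 were called lower, beside 10.8% of all genes. The members called higher were Dkk2 and Wnt7a, and those called lower were Axin2, Frzb, Fzd5, Sfrp1, Wnt10b, Wnt11 and Wnt2b. The median ratio of the members was 0.724 and that of all genes 0.845. With TMM scaling, which sets the middle of all genes near no change, the median log2 ratio of all genes moved from -0.24 to -0.0018 and the share of calls that were higher moved from 43.0% to 63.4%. In such sums fewer cells of a type and less RNA per cell cannot be told apart.

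Sfrp1, a secreted frizzled-related inhibitor, had 225 CPM in control and 91.1 CPM in TP, a ratio of 0.405 (0.397 to 0.414). Axin2 had 72.8 CPM in control and 32.8 CPM in TP, a ratio of 0.450 (0.433 to 0.467). When the clusters of both libraries were weighted by their control share of UMIs, the ratio was 0.534 for Sfrp1 and 0.616 for Axin2, so both stayed under 1. These fixed weights hold the shares of the clusters, not the mixture of cells inside a cluster. Frzb did not: its ratio was 0.409 (0.359 to 0.466) as counted and 1.03 with fixed weights. Fzd5, a frizzled receptor, had a ratio of 0.362 (0.336 to 0.390) as counted and 0.699 with fixed weights. The ligand Wnt10b moved likewise, from 0.430 (0.392 to 0.472) to 0.876, and Wnt11 moved from 0.448 (0.389 to 0.516) to 0.779. Dkk2, an inhibitor that binds LRP co-receptors, had 12.5 CPM in control and 29.3 CPM in TP, and its ratio of 2.35 (2.21 to 2.50) became 1.14 with fixed weights.

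**Figure D1:**
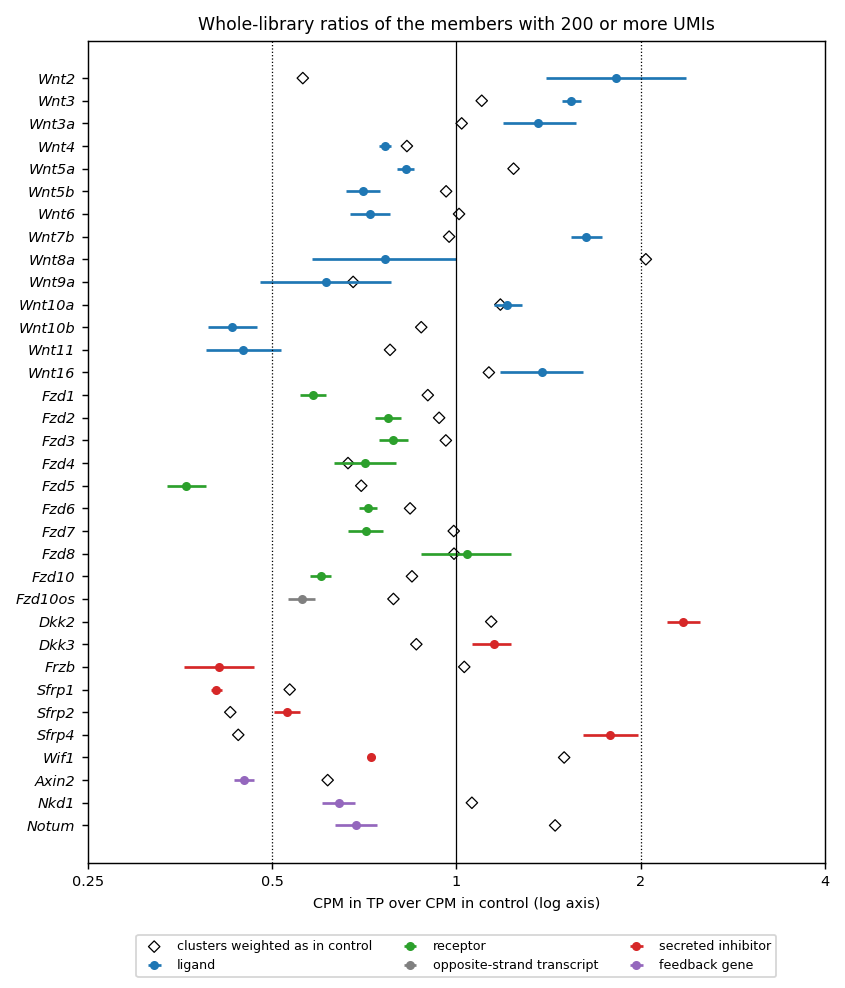
CPM in TP over CPM in control on a log axis for the 34 members with at least 200 UMIs, as points with 95% intervals (counting error only), coloured by role, and as open diamonds with the clusters of both libraries weighted as in control. Sfrp1 (0.405 and 0.534) and Axin2 (0.450 and 0.616) lie left of 1 on both scales, whereas Wif1 (0.726 and 1.50) and Sfrp4 (1.78 and 0.440) cross it.

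Wif1 and Sfrp4 moved across 1 with the cluster shares held fixed. Wif1, a WNT-binding inhibitor, had 476 CPM in control and 346 CPM in TP, a ratio of 0.726 (0.717 to 0.735), against 1.50 with fixed weights. Sfrp4 had 5.25 CPM in control and 9.37 CPM in TP, a ratio of 1.78 (1.61 to 1.98), against 0.440 with fixed weights. Dermal fibroblast-like (DF-like) cells held 27.9% of the Sfrp4 UMIs of control and 90.7% of those of TP, and they numbered 110 cells in control and 548 in TP. Notum had a ratio of 0.686 (0.633 to 0.743) as counted and 1.45 with fixed weights, and Nkd1 had ratios of 0.642 (0.604 to 0.682) and 1.06. Among the ligands, Wnt3 had 46.9 CPM in control and 72.3 CPM in TP, a ratio of 1.54 (1.49 to 1.60), and Wnt7b had 15.0 and 24.5 CPM, a ratio of 1.63 (1.54 to 1.73). With fixed weights these were 1.10 for Wnt3 and 0.973 for Wnt7b.

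The remaining members with at least 200 UMIs had whole-library ratios between 0.529 and 1.82. Sfrp2 stood at the lower end with 37.4 CPM in control and 19.8 CPM in TP (0.503 to 0.555 for its ratio of 0.529), and Wnt2 at the upper end with 0.803 and 1.46 CPM (1.40 to 2.37 for its ratio of 1.82). Wnt4 had 138 and 105 CPM, a ratio of 0.763 (0.746 to 0.781), and Wnt5a 71.9 and 59.4 CPM, a ratio of 0.826 (0.800 to 0.852). Both ratios lay below 1, short of the fold rule. Wnt5b had 19.9 and 14.0 CPM (ratio 0.704), Wnt6 had 13.8 and 9.98 CPM (0.722), Wnt8a had 1.06 and 0.808 CPM (0.764) and Wnt9a had 1.45 and 0.890 CPM (0.612). Wnt3a had 3.06 and 4.17 CPM (1.36), Wnt10a had 18.9 and 22.9 CPM (1.21) and Wnt16 had 2.44 and 3.36 CPM (1.38). The ligands thus lay on both sides of 1. Of the receptors with 200 UMIs, all but Fzd8 lay below it, as did 11503 of all 17552 genes tested. With fixed weights these receptors ranged from 0.665 for Fzd4 to 0.991 for Fzd8. Fzd1 had 35.8 and 20.9 CPM (0.583), Fzd2 had 29.4 and 22.8 CPM (0.773), Fzd3 had 25.6 and 20.2 CPM (0.788) and Fzd4 had 5.77 and 4.10 CPM (0.710). Fzd6 had 73.4 and 52.7 CPM (0.717), Fzd7 had 18.0 and 12.8 CPM (0.711) and Fzd8 had 2.30 and 2.39 CPM (1.04). In this group the intervals of Wnt8a and Fzd8 reached 1. The inhibitor Dkk3 had 11.4 and 13.1 CPM (1.15). With fixed weights, 6 of these members crossed 1: Wnt2 stood at 0.561, Wnt5a at 1.24, Wnt6 at 1.01, Wnt8a at 2.04, Fzd8 at 0.991 and Dkk3 at 0.860. Fzd10 had 54.2 and 32.5 CPM, a ratio of 0.600 (0.576 to 0.624), and Fzd10os had 34.4 and 19.2 CPM, a ratio of 0.559 (0.531 to 0.588). These neighbours lie 419 bases apart on chromosome 5 and the use of strand in counting is not given in the sources used here, so their UMIs may be shared between them and both are uncertain. Wnt3 and Wnt9b overlap on chromosome 11, and their counts carry the same doubt. The 9 members under 200 UMIs were Dkk1, Dkk4, Fzd9, Sfrp5, Wnt1, Wnt2b, Wnt7a, Wnt8b and Wnt9b. Wnt1 was at 0 UMIs in control against 5 in TP. Wnt7a was called on 17 and 43 UMIs (ratio 2.00, 1.12 to 3.75) and Wnt2b on 44 and 17 (0.306, 0.164 to 0.546).

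The ligands were distributed over the epithelium and the mesenchyme in separate patterns. Unnamed clusters belong to no class and were left out of the rankings here and below. Among classes with at least 50 cells in either library, Wnt3, Wnt3a, Wnt7b and Wnt16 had their highest level in IFE basal-like cells in both libraries. The control level of Wnt3 there was 127 CPM and the TP level 145 CPM, and the next class was within counting error in each library. Wnt3a had 24.6 and 22.9 CPM in IFE basal-like cells, and the interval of the next class lay below. Wnt16, a ligand of the epidermis, had 16.4 and 14.6 CPM there. Wnt4 peaked in the class of medulla and companion layer-like cells, inner layers of the follicle, with 329 CPM in control and 353 CPM in TP. That class rests on 1 cluster of 1455 and 409 cells led by Soat1, Gpnmb and Vat1l. Clusters led by the same genes carried no name at resolution 0.5 or 2. Their leading genes held a marker of the sebaceous gland and none of the class. Wnt6 and Wnt10b peaked in hair matrix-like cells, dividing keratinocytes of the bulb. Wnt6 had 64.3 and 84.0 CPM there and Wnt10b had 70.8 and 76.7 CPM. Unnamed clusters held 36.7% of the Wnt6 UMIs of control and 33.1% of those of TP, against 19.1% and 10.3% in hair matrix-like cells. For Wnt10b the shares were 33.1% and 30.3% in unnamed clusters, against 23.3% and 17.5%. Wnt10a peaked in hair cortex and cuticle-like cells with 72.7 and 94.7 CPM. In TP the next class was within counting error for both Wnt10 ligands. It was IFE basal-like for Wnt10a (90.2 CPM) and hair cortex and cuticle-like for Wnt10b (57.9 CPM). The ligands Wnt5a and Wnt5b, best known for signalling outside the β-catenin branch, were highest in DPC-like cells in both libraries. The next class, whose interval did not overlap theirs, was hair matrix-like for Wnt5a and outer bulge-like for Wnt5b.

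**Figure D2:**
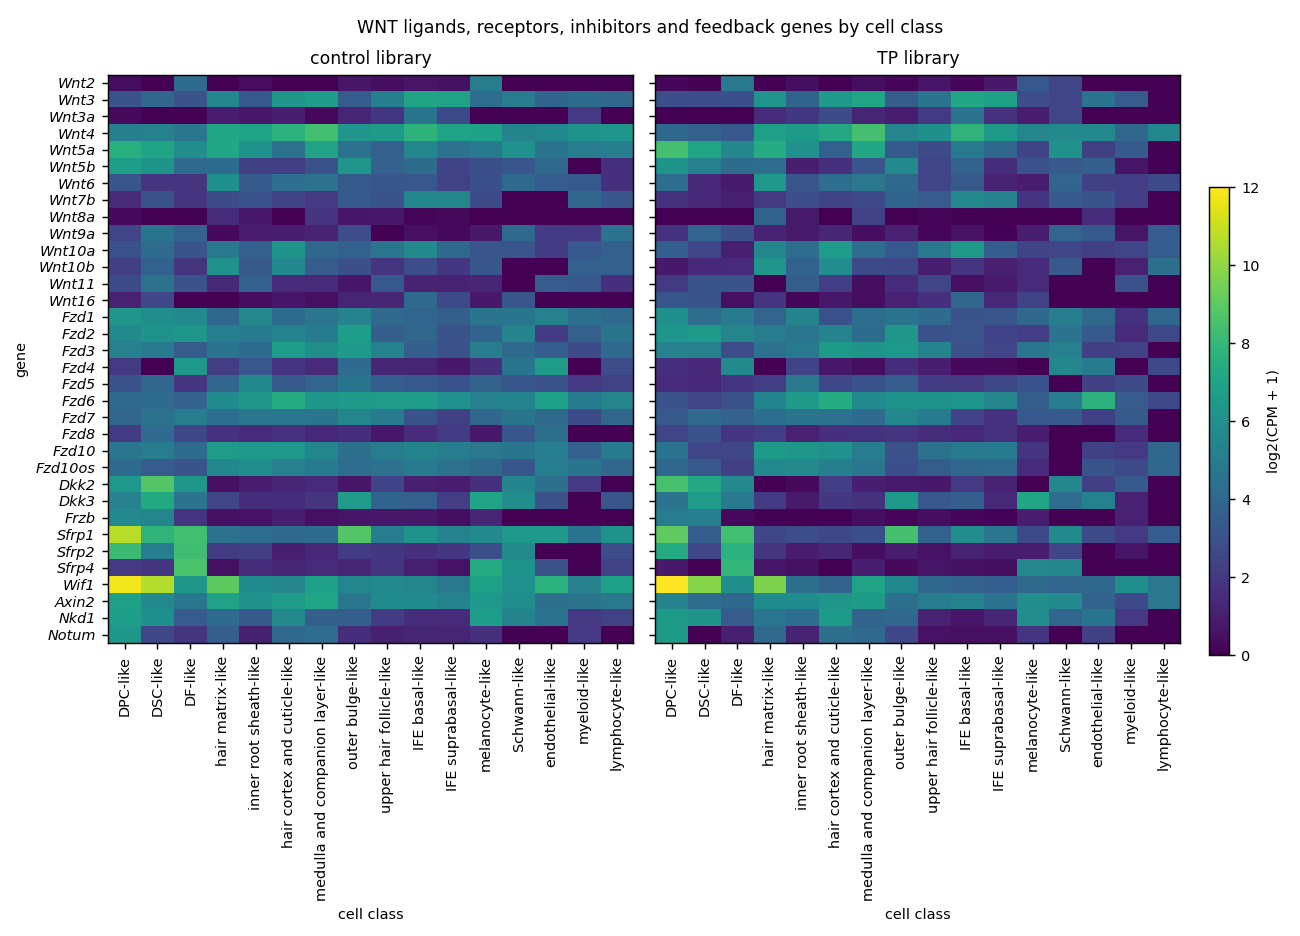
Level of each member with at least 200 UMIs as log2(CPM + 1), left for the control library and right for the TP library, in 1 colour scale. The classes shown are those with at least 50 cells in either library, except smooth muscle and pericyte-like cells (33 and 77 cells). Members highest in that omitted class in TP include Fzd4, Fzd7 and Nkd1. The brightest cell of each panel is Wif1 in DPC-like cells (3478 and 4222 CPM), and Sfrp1 in DPC-like cells is lower in the TP panel (1688 and 533 CPM).

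The receptors were spread more widely. Fzd3 and Fzd6 were high in hair cortex and cuticle-like cells, at 104 and 92.6 CPM for Fzd3 and 171 and 172 CPM for Fzd6. Fzd2 had 103 CPM in outer bulge-like cells of control and 79.6 CPM in those of TP, where Fzd7 had 44.3 and 48.2 CPM. In TP both were higher elsewhere, Fzd2 in DSC-like cells at 88.0 CPM, within counting error of outer bulge-like cells, and Fzd7 in smooth muscle and pericyte-like cells at 83.0 CPM (59.3 to 113). Those numbered 33 cells in control, with Fzd7 at 108 CPM (57.3 to 184). The bulge houses the stem cells of the follicle. Fzd10 was highest in hair matrix-like cells, with 94.8 CPM in control and 91.4 CPM in TP, and its inner root sheath-like level was 82.0 and 81.8 CPM. Fzd1 was highest in DPC-like cells at 76.2 and 63.5 CPM. Among the named classes Fzd5 was highest in inner root sheath-like cells, at 47.4 CPM in control and 27.4 CPM in TP. Its ratio there was 0.577 (0.499 to 0.666). Unnamed clusters, which were not ranked, held 32.0% of its UMIs of control and 29.1% of those of TP. Fzd5 was among the leading genes of the unnamed cluster led by Hbb-bs, Hba-a1 and Slc30a1 (5767 and 335 cells). The ratio of Fzd5 was below 1 with an interval that left out 1 in 8 of the 8 classes where it had 50 UMIs. Over clusters with 50 of its UMIs and at least 20 cells of each library it was below 1 in 14 of 16. In 10 of these the interval lay below 1. With TMM scaling within each cluster it was below 1 in 13 of 16. The share of all genes with such counts was not computed. Inner root sheath markers summed to 2218 and 456 CPM in DPC-like cells and to 2556 and 770 CPM in IFE basal-like cells. In inner root sheath-like cells they summed to 13521 and 17660 CPM. The part of free RNA in the Fzd5 ratios of other classes was not tested. Fzd6 in endothelial-like cells had 108 CPM in control and 208 CPM in TP, a ratio of 1.92 (1.29 to 2.94) from 32 and 110 UMIs. In that class IFE basal markers summed to 1015 and 1692 CPM, DSC markers to 277 and 1062 CPM, inner root sheath markers to 3322 and 747 CPM, and smooth muscle and pericyte markers to 599 and 26.5 CPM, and their part in the ratio was not tested. Fzd4 was highest in endothelial-like cells of control (94.7 CPM) and in smooth muscle and pericyte-like cells of TP (99.6 CPM), each on fewer than 50 UMIs.

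Wif1, Frzb, Dkk2 and Sfrp2 had most of their UMIs in DPC-like cells in both libraries, while other inhibitors did not. In TP, outer bulge-like cells held 41.7% of the Dkk3 UMIs and DPC-like cells 12.3%. Melanocyte-like cells held 40.8% of the Sfrp4 UMIs of control, and hair matrix-like cells 20 of the 27 Dkk4 UMIs of TP. DPC-like cells held 82.6% of the Wif1 UMIs of control and 86.1% of those of TP, and 88.2% and 87.6% of those of Frzb. For Sfrp1 the DPC-like share was 84.9% in control and 41.3% in TP, while outer bulge-like cells held 2.73% and 24.6%. Sfrp1 in outer bulge-like cells had 436 CPM in control and 353 CPM in TP, a ratio of 0.810 (0.744 to 0.883). In DF-like cells its levels were 329 and 333 CPM, a ratio of 1.01 (0.848 to 1.22). Sfrp4 was highest in DF-like cells, with 386 CPM in control and 242 CPM in TP, a ratio of 0.627 (0.530 to 0.747). Melanocyte-like cells were the next class for Sfrp4, with 168 and 48.8 CPM and a ratio of 0.291 (0.213 to 0.392). Dkk3, whose place among the Dickkopf proteins is atypical, was highest in dermal sheath cup-like (DSC-like) cells of control, the contractile sheath at the base of the follicle, and in melanocyte-like cells of TP. It had 153 and 95.8 CPM in the former and 128 and 130 CPM in the latter, with intervals that overlapped in each library, and 93.9 and 86.0 CPM in outer bulge-like cells. Sfrp5 had 57.7 and 106 CPM in Schwann-like cells on 7 and 23 UMIs, and at most 1.23 CPM in any other class. Dkk1 was nearly limited to DSC-like cells, which held its 3 UMIs of control and 9 of its 10 UMIs of TP.

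In DPC-like cells, 29 members reached 50 UMIs over both libraries. Of these, 3 were called higher in TP, beside 3.87% of all 12917 genes tested in these cells, and 7 were called lower, beside 7.49%. The members called higher were Dkk2, Wnt16 and Wnt6, and those called lower were Axin2, Fzd5, Fzd6, Sfrp1, Wnt10b, Wnt4 and Wnt9a. The median ratio was 0.833 for the members and 0.933 for all genes. Sfrp1 had 1688 CPM in control and 533 CPM in TP, a ratio of 0.316 (0.306 to 0.326). Wnt4 had 35.2 and 15.7 CPM, a ratio of 0.447 (0.368 to 0.540). Fzd6 had 16.2 and 7.54 CPM, a ratio of 0.465 (0.349 to 0.613). Each of these fell in TP by the fold rule, and each had a ratio of 0.527 with the clusters of the class weighted as in control, short of the fold. Among the low-level members, Fzd5 had 90 UMIs in control and 17 in TP (ratio 0.240, 0.134 to 0.406), Wnt10b 46 and 7 (0.193, 0.0737 to 0.431) and Wnt9a 56 and 22 (0.499, 0.290 to 0.831). Wif1 had 3478 and 4222 CPM, a ratio of 1.21 (1.20 to 1.23). Markers of the inner root sheath, summed over 8 genes, stood at 2218 CPM in DPC-like cells of control and 456 CPM in those of TP, and their part in these results was not tested.

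The DPC-like class held 4 clusters, named here by their leading genes, and the libraries filled them differently. The cluster led by a (agouti), Adgrb3 and Fgf14 had 1662 cells in control and 1022 in TP. The cluster led by Ndnf, Tmem132c and Rspo4 had 2310 and 328. A small one led by Apod, Edn3 and Hpse2 had 168 and 24, and the cluster led by Dkk2, Gpc5 and Igfbp3 had 25 and 291. The last may be a feature of the TP library rather than a type. Its 10 DPC markers summed to 6667 CPM in control and 8044 CPM in TP, below the 11215 CPM or more of the other clusters, and it carried no name when cells were clustered at resolution 0.5. Results are therefore given by cluster.

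In the a/Adgrb3 cluster, 24 members reached 50 UMIs. Of these, 3 were called higher in TP (Wif1, Wnt16 and Wnt5a), beside 4.07% of all 11908 genes tested, and 5 lower (Axin2, Dkk3, Fzd6, Sfrp1 and Sfrp2), beside 6.85%. The median ratio was 1.18 for the members and 0.965 for all genes. Wif1 rose from 1900 CPM in control to 4112 CPM in TP, a ratio of 2.16 (2.12 to 2.21). Sfrp1 fell from 1642 to 418 CPM, a ratio of 0.255 (0.244 to 0.265). Sfrp2 fell from 541 to 200 CPM, a ratio of 0.369 (0.347 to 0.393). The ligand Wnt5a rose from 197 to 414 CPM, a ratio of 2.10 (1.96 to 2.25). Wnt16 rose from 7 to 51 UMIs, a ratio of 6.12 (2.77 to 16.0), at a level of 7.25 CPM in TP. Dkk3 fell from 47.0 to 19.1 CPM, a ratio of 0.405 (0.327 to 0.500). DPC markers summed to 23200 CPM in control and 21783 CPM in TP in this cluster, and DF markers to 2353 and 1911 CPM. Inner root sheath markers were lower there in TP, at 1657 and 350 CPM with 0 of 8 higher, as were melanocyte markers, at 116 and 20.5 CPM with 0 of 5 higher, and their part in these ratios was not tested.

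The libraries also filled this cluster differently. With the clusters of resolution 0.5, a division chosen after seeing the data, it held 4 pieces with at least 20 cells of each library. The piece led by Ecrg4, Sostdc1 and Sfrp2 had 643 cells in control and 114 in TP, and the piece led by Kcnip4, Kcnq3 and Ncam2 had 578 and 45. The piece led by a, Clstn2 and Vip had 284 and 554, and the piece led by Galnt13, Luzp2 and Spef2 had 102 and 305. The ratios differed among the pieces. Wif1 had ratios of 1.02 (0.955 to 1.09) in the Ecrg4 piece, 1.24 (1.06 to 1.45) in the Kcnip4 piece and 1.12 (1.09 to 1.15) in the Vip piece, and reached the fold in the Galnt13 piece alone, at 2.97 (2.62 to 3.38). Its level was 5113 and 5710 CPM in the Vip piece, which held more of the TP cells, against 1308 and 1336 CPM in the Ecrg4 piece, which held more of the control cells. With the pieces weighted as in control the Wif1 ratio was 1.14, and with the pieces of resolution 2 it was 1.40. Wnt5a likewise went from 2.10 to 1.24 and 1.59, and it did not reach the fold inside any of the 4 pieces. Sfrp2 went from 0.369 to 0.915 and 0.670 with these weights. It had ratios of 1.03 in the Ecrg4 piece and 0.934 in the Kcnip4 piece, but fell past the fold in the Galnt13 piece, at 0.285 (0.249 to 0.328), and in the Vip piece, at 0.236 (0.172 to 0.323). Dkk3 went from 0.405 to 0.757 and 0.549, while Wnt16 remained at 2.16 and 6.58 on few UMIs. Sfrp1 was lower in TP inside each of the 4 pieces, with 1092 and 253 CPM in the Vip piece (ratio 0.232, 0.214 to 0.252) and ratios of 0.535, 0.567 and 0.595 in the others. Its weighted ratio was 0.526, or 0.351 at resolution 2. Fzd6 had weighted ratios of 0.588 and 0.417.

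Shares of cells with a UMI were read in the same cluster. After each cell was thinned to 1000 UMIs, a Wif1 UMI was present in 58.1% (55.7 to 60.5) of a/Adgrb3 cells of control against 71.8% (68.9 to 74.6) in TP. Without thinning, at medians of 3160 and 5652 UMIs, the shares were 81.0% and 90.4%. For Sfrp1 the thinned share was 62.6% (60.2 to 64.9) in control and 25.3% (22.7 to 28.1) in TP, and 83.2% and 63.3% without thinning. Wnt5a UMIs were found in 15.8% (14.1 to 17.6) and 30.5% (27.6 to 33.4) of thinned cells, and in 40.0% and 74.9% of cells as deposited. Inner root sheath-like cells, where Wif1 and Sfrp1 were low, were taken as background at medians of 2097 and 4213 UMIs, although their own expression of these genes was not tested. Their thinned Wif1 share was 5.72% in control and 2.10% in TP, and their Sfrp1 share 2.14% and 0.336%. Without thinning these were 12.0% and 9.40% for Wif1 and 4.44% and 3.68% for Sfrp1. The Wnt5a shares of these keratinocytes were 6.70% and 6.38% thinned, and 14.7% and 27.1% without thinning. Over all DPC-like cells the thinned Wif1 share was 72.1% (70.7 to 73.5) in control and 65.7% (63.2 to 68.0) in TP, the opposite order to the levels of 3478 and 4222 CPM, so no order is read from it. By cluster the thinned share was 85.0% and 88.4% in the Ndnf cluster, on 1947 and 232 cells. It was 66.1% and 83.3% in the Apod cluster, on 168 and 24 cells. In the cluster led by Dkk2, Gpc5 and Igfbp3 it was 33.3% and 23.1%, on 24 and 281 cells. All intervals on shares are exact Clopper-Pearson intervals.

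In the Ndnf cluster, 22 members reached 50 UMIs. None was called higher in TP, beside 2.05% of all 10704 genes tested, and 3 were called lower (Fzd10, Fzd5 and Wnt4), beside 5.62%. Wif1 had 5311 CPM in control and 7616 CPM in TP, a ratio of 1.43 (1.40 to 1.47), which did not reach the fold. With TMM scaling Fzd5 was the only member called lower. Sfrp1 had 1634 and 1330 CPM, a ratio of 0.814 (0.773 to 0.858), and Sfrp2 was low in both, at 17.0 and 27.0 CPM. At resolution 0.5 this cluster stayed whole, with 2284 and 327 of its cells in 1 cluster. At resolution 2 it divided into a piece led by Ndnf, Rspo4 and Tmem132c, with 1319 and 184 cells, and a piece led by Tmem132c, Cdh22 and Grid1, with 974 and 142. The resolution 2 cluster of the second piece had medians of 1274 UMIs per cell in control and 781 in TP. That of the first piece had medians of 2336 and 4633, and the part of depth in these ratios was not tested. The Sfrp1 ratio was 0.768 (0.728 to 0.809) in the first and 0.428 (0.320 to 0.562) in the second, past the fold on 862 and 55 UMIs. Wif1 had ratios of 1.34 (1.31 to 1.37) and 1.02 (0.917 to 1.14) there. Frzb had 82.0 and 92.7 CPM, a ratio of 1.13 (0.917 to 1.39), and in the a/Adgrb3 cluster 20.8 and 24.3 CPM, a ratio of 1.17 (0.922 to 1.49), or 0.861 and 0.771 with the pieces of resolution 0.5 and 2 weighted as in control. In the class as a whole its ratio was 0.652 (0.567 to 0.749), while the Ndnf cluster, where its level was higher, went from 2310 of 4165 cells to 328 of 1665. Wnt5b had a ratio of 0.699 (0.636 to 0.768) in the class, with 159 and 142 CPM in the Ndnf cluster against 52.6 and 65.4 CPM in the a/Adgrb3 cluster, whose weighted ratios were 0.839 and 0.906.

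**Figure D3:**
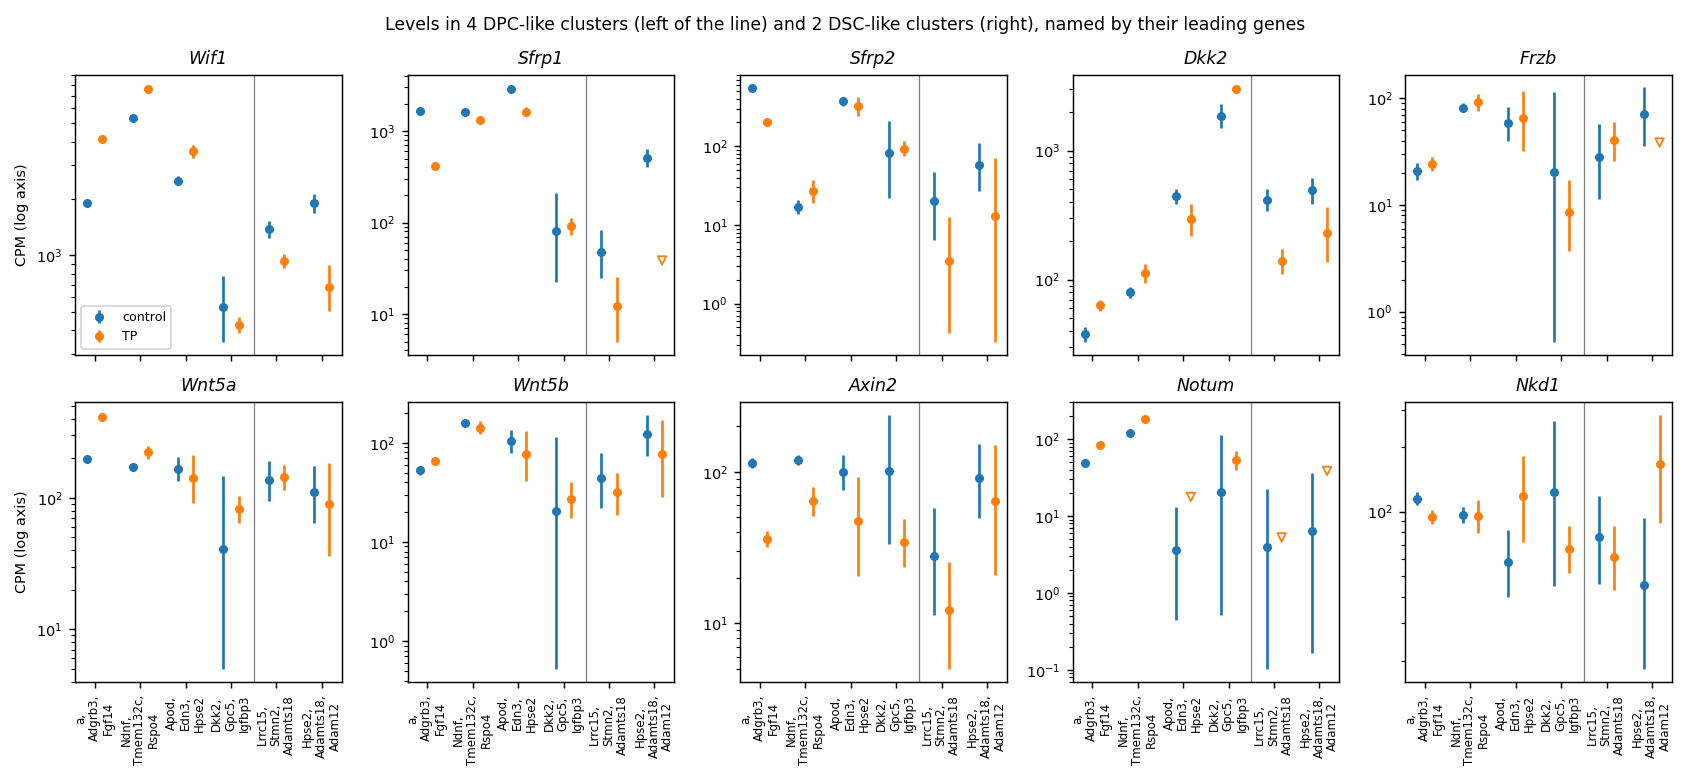
CPM on a log axis of 10 members in the 4 DPC-like clusters (left of the grey line) and the 2 DSC-like clusters (right), control in blue and TP in orange, with exact Poisson 95% intervals; an open triangle marks the level that 3 UMIs would give where a library had none. In the cluster led by a, Adgrb3 and Fgf14, Wif1 is higher in TP (1900 and 4112 CPM) and Sfrp1 lower (1642 and 418 CPM), and Axin2 is lower in TP in each of the 4 DPC-like clusters, of which the Gpc5 cluster rests on 5 control UMIs.

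Dkk2 was the inhibitor whose class total depended most on which cells were included. In all DPC-like cells it had 82.8 CPM in control and 361 CPM in TP, a ratio of 4.36 (4.06 to 4.68). The ratio was 0.996 once the Gpc5 cluster was left out, a choice made after seeing the data. That cluster alone held 2762 of the 3918 Dkk2 UMIs of the TP library, at 2983 CPM, and 91 UMIs at 1861 CPM in its 25 control cells. In the a/Adgrb3 cluster Dkk2 had 37.6 and 63.1 CPM, a ratio of 1.68 (1.43 to 1.98). At resolution 0.5 its ratio was 0.566 (0.288 to 1.03) in the Ecrg4 piece and 1.11 (0.283 to 3.15) in the Kcnip4 piece. It was 1.99 (1.15 to 3.73) in the Galnt13 piece and 2.95 (1.98 to 4.55) in the Vip piece, and only the last passed the fold. In the Ndnf cluster Dkk2 had 80.0 and 112 CPM, a ratio of 1.40 (1.15 to 1.69). That cluster joined pieces of resolution 2 with Dkk2 ratios of 0.995 (0.771 to 1.27) in the piece led by Ndnf and 3.20 (2.32 to 4.36) in the piece led by Tmem132c. The latter rested on 130 and 62 UMIs, in cells with the lower depth in TP given above. In DSC-like cells 2 of 8 members were called lower, Dkk2 and Sfrp1, beside 4.62% of all genes. Dkk2 fell from 445 to 150 CPM, a ratio of 0.337 (0.260 to 0.433). Both DSC-like clusters showed this, with ratios of 0.334 (0.246 to 0.451) and 0.470 (0.264 to 0.793). Sfrp1 in DSC-like cells fell from 225 to 10.8 CPM on 91 and 7 UMIs, a ratio of 0.0481 (0.0188 to 0.103). Alongside, 10 DF markers summed to 8331 CPM in DSC-like cells of control against 22379 CPM in TP. DPC markers summed to 4152 and 2581 CPM there, with 0 of 10 higher in TP, and inner root sheath markers to 2276 and 397 CPM. The part of these markers in the DSC-like ratios was not tested. The Wnt6 call in DPC-like cells also leaned on the Gpc5 cluster, where it had 102 and 99.4 CPM. In the a/Adgrb3 cluster Wnt6 had 35 and 81 UMIs, a ratio of 1.95 (1.29 to 2.98), or 1.12 with its pieces at resolution 0.5 weighted as in control.

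Axin2, the feedback gene most often read as a measure of canonical WNT activity, was lower in TP in every class with 50 of its UMIs. In DPC-like cells it fell from 116 to 40.0 CPM, a ratio of 0.344 (0.306 to 0.386), and in hair matrix-like cells from 120 to 56.4 CPM, a ratio of 0.470 (0.372 to 0.587). In the other classes with 50 UMIs the ratio did not reach the fold. It was 0.564 (0.512 to 0.622) in IFE suprabasal-like cells, 0.682 (0.588 to 0.789) in medulla and companion layer-like cells and 0.802 (0.723 to 0.890) in inner root sheath-like cells. The ratio was below 1 in 11 of 11 classes with 50 UMIs, with an interval that left out 1 in 8 of them. Among all genes with 50 UMIs in at least 10 classes, 7.12% were below 1 in every one, and Axin2 was the only 1 of 12 such members. Over clusters with 50 of its UMIs and at least 20 cells of each library, Axin2 was below 1 in 25 of 25. After TMM scaling within each cluster it was below 1 in 24 of 25. The share of all genes below 1 in every such cluster was not computed. These clusters are parts of the same libraries and are not replicates. In the a/Adgrb3 cluster it fell from 114 to 36.1 CPM, a ratio of 0.316 (0.272 to 0.365), and in the Ndnf cluster it had 120 and 64.1 CPM, a ratio of 0.534 (0.420 to 0.672). Inside the 4 pieces of the a/Adgrb3 cluster its ratios were 0.348 (0.257 to 0.472), 0.434 (0.262 to 0.742), 0.623 (0.363 to 1.01) and 0.804 (0.624 to 1.03), and weighted as in control they gave 0.672, or 0.416 at resolution 2. In the Gpc5 cluster its ratio of 0.338 (0.131 to 1.11) rested on 5 UMIs in 25 control cells.

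Notum and Nkd1 gave other values. Notum had 49.6 and 83.2 CPM in the a/Adgrb3 cluster, a ratio of 1.68 (1.46 to 1.94) that was 0.986 and 0.783 with the pieces of resolution 0.5 and 2 weighted as in control, and 121 and 183 CPM in the Ndnf cluster, a ratio of 1.51 (1.30 to 1.76). DPC-like cells held 71.7% of the Notum UMIs of control and 75.3% of those of TP. Nkd1 had 115 and 94.7 CPM in the a/Adgrb3 cluster, a ratio of 0.823 (0.739 to 0.918) that was 1.42 and 0.913 with those weights, and 96.8 and 95.8 CPM in the Ndnf cluster, a ratio of 0.990 (0.807 to 1.21). In inner root sheath-like cells Nkd1 rose from 9.48 to 19.3 CPM, a ratio of 2.03 (1.65 to 2.51). A cluster of that class led by S100a3, Prr9 and Acsm3 went from 301 of 8314 cells to 132 of 1223. Its second-scoring class was hair cortex and cuticle, where Nkd1 had 49.2 and 91.1 CPM, and the part of this shift was not tested. Over classes with 50 UMIs the ratio was above 1 in 7 of 11 for Nkd1 and in 3 of 4 for Notum, in most with intervals that held 1.

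**Figure D4:**
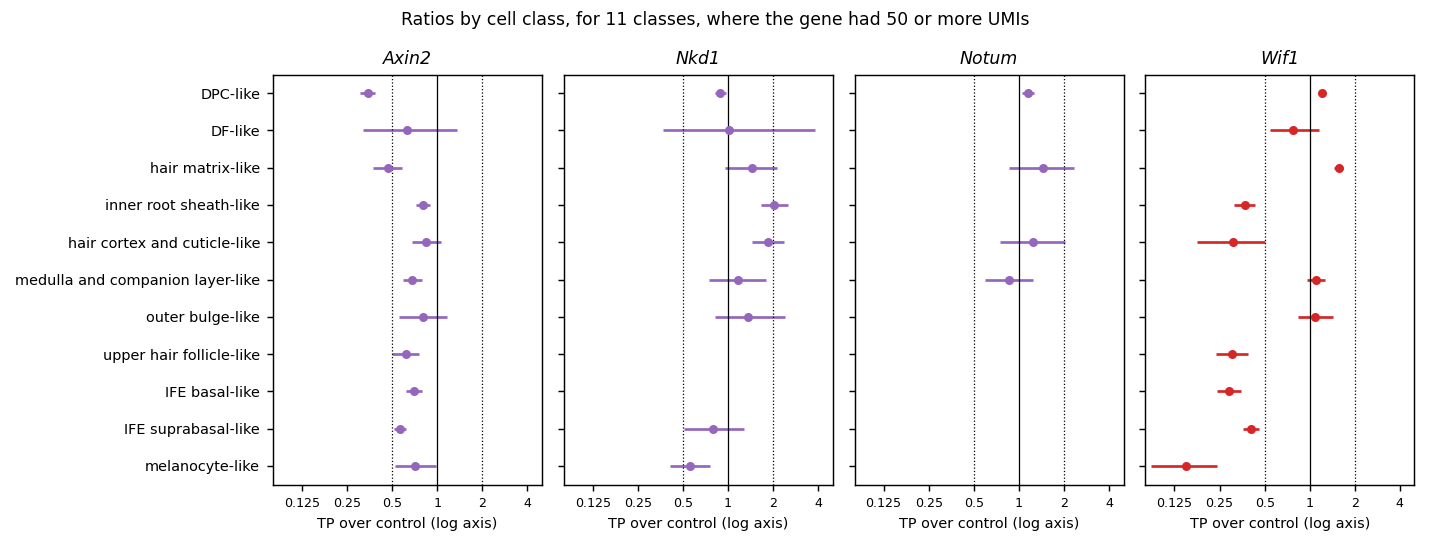
CPM in TP over CPM in control on a log axis, with 95% intervals (counting error only), in those of the 11 classes with 50 or more Axin2 UMIs where the gene shown also had 50, for the feedback genes Axin2, Nkd1 and Notum and the inhibitor Wif1; dotted lines mark ratios of 0.5 and 2. Axin2 lies left of 1 in all 11 classes, from 0.344 in DPC-like to 0.849 in hair cortex and cuticle-like cells, whereas Nkd1 reaches 2.03 in inner root sheath-like cells and Wif1 lies on both sides.

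Promoter windows were read from RefSeq (GRCm38.p6) for 29 of the 43 members, as the 250 bases before each start site, 32 windows in all. They were searched on both strands for the TCF/LEF core (CTTTG followed by AA, AT, TA or TT) and for the androgen receptor half-site (TGTTCT). The core was present in 4 of the 32 windows (12.5%) and in 14.8% of all 32851 windows of this length. The half-site was present in 4 of the 32 (12.5%) and in 16.1% of all windows. The windows of Axin2 and Dkk2 are shown because these genes carry opposite calls in DPC-like cells and each holds 1 half-site, printed in capitals. With the clusters of that class weighted as in control the Dkk2 ratio was 1.30, short of the fold. The Axin2 window is chr11:108920099-108920348 on the plus strand, with the half-site on the minus strand (so its reverse complement is read here) at position -152 from the start site. The Dkk2 window is chr3:132085042-132085291 on the plus strand, with the half-site on the same strand at position -241.
Axin2: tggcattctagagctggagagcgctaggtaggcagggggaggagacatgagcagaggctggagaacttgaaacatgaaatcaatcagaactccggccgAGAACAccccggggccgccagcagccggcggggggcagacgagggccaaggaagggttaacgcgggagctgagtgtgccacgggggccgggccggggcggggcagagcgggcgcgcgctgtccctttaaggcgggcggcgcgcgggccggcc
Dkk2: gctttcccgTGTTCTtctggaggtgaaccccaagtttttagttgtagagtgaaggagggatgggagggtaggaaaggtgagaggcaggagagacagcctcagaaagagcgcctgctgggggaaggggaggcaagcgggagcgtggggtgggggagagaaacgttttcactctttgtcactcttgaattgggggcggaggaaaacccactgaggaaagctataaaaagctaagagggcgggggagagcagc
Neither window holds the TCF/LEF core. The Axin2 window lies inside the span of the gene given below, so it precedes an internal start site. The bases before the first base of that span were not searched for Axin2. Dkk1 holds 2 copies of the core, and Fzd7, Wnt11 and Wnt5b 1 each. A match is a description of these letters and says nothing of binding. In GRCm38 coordinates Axin2 spans chr11:108917828-108950783, Dkk2 chr3:132085266-132180304, Wif1 chr10:121034004-121100642, Sfrp1 chr8:23411383-23449632 and Wnt5a chr14:28504543-28527448.

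In hair matrix-like cells, 20 members reached 50 UMIs. None was called higher in TP, beside 1.45% of all 9524 genes tested, and 3 were called lower (Axin2, Fzd5 and Sfrp1), beside 3.99%. The share of all calls that were higher was 26.6%, or 42.9% with TMM scaling. The median ratio was 1.03 for the members and 0.917 for all genes. Several ligands stood above 1 without reaching the fold. Wnt3 had 47.7 CPM in control and 75.5 CPM in TP, a ratio of 1.58 (1.25 to 1.99), Wnt10a had a ratio of 1.69 (1.24 to 2.28) and Wnt6 one of 1.31 (1.06 to 1.61). Wnt10b, at 70.8 and 76.7 CPM, had a ratio of 1.08 (0.873 to 1.34), against 0.430 over the whole libraries. Wif1 in these cells had 523 and 817 CPM, a ratio of 1.56 (1.46 to 1.67), while in inner root sheath-like cells it had 56.4 and 20.8 CPM, a ratio of 0.368 (0.313 to 0.431). In hair matrix-like cells DF markers summed to 655 CPM in control against 1701 in TP, IFE basal markers to 1483 against 2107 and inner root sheath markers to 3728 against 1316, and their part in these ratios was not tested. Wnt8a and Dkk4 had fewer than 50 UMIs here, Wnt8a with 8 in control and 22 in TP and Dkk4 with 6 and 20. Fzd5 and Sfrp1 had ratios of 0.262 (0.0924 to 0.603) and 0.234 (0.0980 to 0.481) on 6 and 8 UMIs in TP.

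In IFE basal-like cells, 23 members reached 50 UMIs. Of these, 1 was called higher (Dkk2, on 8 and 48 UMIs), beside 1.62% of all 11517 genes tested, and 3 were called lower (Fzd5, Wif1 and Wnt10b), beside 3.61%. The share of all calls that were higher was 31.0%, or 43.7% with TMM scaling. Several ligands of the epidermis differed little between the libraries, with ratios of 1.01 (0.956 to 1.08) for Wnt4, 1.10 (0.963 to 1.26) for Wnt7b and 1.14 (1.06 to 1.23) for Wnt3. Wnt10a had 51.9 CPM in control and 90.2 CPM in TP, a ratio of 1.74 (1.55 to 1.95). Beside the call of Wnt10b at 0.427 (0.272 to 0.668), Wnt5a had a ratio of 0.677 (0.588 to 0.780) and Wnt5b one of 0.733 (0.585 to 0.920), below 1 without reaching the fold. In IFE suprabasal-like cells the Wnt10a ratio was 0.648 (0.560 to 0.753), and Wnt16, Wnt3a and Wnt6 had ratios of 0.311 (0.227 to 0.426), 0.416 (0.312 to 0.556) and 0.310 (0.217 to 0.443). Wif1 in IFE basal-like cells had 44.1 and 12.8 CPM. Inner root sheath markers summed to 2556 CPM in control against 770 in TP in these cells, and melanocyte markers to 180 against 33.2, and their part was not tested. Wif1 was also counted in endothelial-like cells (200 and 15.1 CPM) and lymphocyte-like cells (111 and 26.0 CPM), lower in TP in both.

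Outside the mesenchyme, the calls not yet given were all lower in TP, as were more genes than not among all calls of these classes. Lower calls took 3 of 18 members in hair cortex and cuticle-like cells, beside 3.22% of all genes, 1 of 20 in medulla and companion layer-like cells, beside 3.15%, and 5 of 24 in inner root sheath-like cells, beside 5.61%. In inner root sheath-like cells 1 member, Nkd1, was higher, beside 3.18%. They took 6 of 20 in upper hair follicle-like cells, beside 3.39%, 4 of 21 in outer bulge-like cells, beside 3.88%, and 8 of 27 in IFE suprabasal-like cells, beside 9.95%. Melanocyte-like cells had 6 of 10, beside 10.9%, and myeloid-like cells 1 of 2, beside 8.07%. The melanocyte-like class joined 4 clusters that the libraries filled differently. Those led by Oca2, Slc24a4 and Pax3 held 203 and 30, 112 and 4, and 104 and 45 cells, and that led by Ptgds held 58 and 105. The part of this mixture in the melanocyte-like ratios was not tested. Sfrp1, at 16.6 to 50.2 CPM in control, had ratios of 0.305 in hair cortex and cuticle-like, 0.329 in inner root sheath-like, 0.365 in medulla and companion layer-like, 0.382 in upper hair follicle-like and 0.106 in melanocyte-like cells. Wif1 had ratios of 0.306 in hair cortex and cuticle-like, 0.305 in upper hair follicle-like, 0.405 in IFE suprabasal-like and 0.149 in melanocyte-like cells. In these classes the control level of Wif1 was 27.3 to 113 CPM. Among the receptors, Fzd5 had ratios of 0.425 in outer bulge-like and 0.309 in upper hair follicle-like cells, Fzd10 one of 0.329 in outer bulge-like cells, Fzd1 one of 0.411 in hair cortex and cuticle-like cells and Fzd6 one of 0.277 in melanocyte-like cells. Fzd10os had 0.358 in outer bulge-like and 0.495 in upper hair follicle-like cells. Among the ligands, Wnt4 had ratios of 0.377 in melanocyte-like and 0.199 in myeloid-like cells, and Wnt2 one of 0.279 in melanocyte-like cells. Wnt5a had 0.437 in outer bulge-like and 0.493 in upper hair follicle-like cells, and Wnt5b had 0.274 in inner root sheath-like, 0.373 in upper hair follicle-like and 0.458 in IFE suprabasal-like cells. In IFE suprabasal-like cells Wnt10b had 0.378, Dkk3 0.438 and Sfrp2 0.351, and in inner root sheath-like cells Dkk3 had 0.407 and Sfrp2 0.238. Each of these ratios has an interval below 1 and rests on 50 or more UMIs over both libraries. The part of free RNA in the low levels of Wif1, Sfrp1, Sfrp2 and other mesenchymal genes outside the mesenchyme, and so in their ratios, was not tested.

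In DF-like cells, 16 members reached 50 UMIs. None was called higher, beside 5.08% of all 8745 genes tested, and 2 were called lower (Fzd7 and Wnt4, each on 13 or fewer control UMIs), beside 6.98%. The share of all calls that were higher was 42.1%, or 64.9% with TMM scaling. Sfrp2, at 314 CPM in control and 203 CPM in TP, had a ratio of 0.646 (0.536 to 0.784). The control library held 110 cells of this class, so only the abundant members could be measured in it. The class joined 4 clusters that the libraries filled differently, and the part of this mixture in its ratios was not tested. They were led by C7 (47 and 267 cells), Nova1 (46 and 80), Col1a1 (15 and 161) and C3 (2 and 40). Wnt2 UMIs were concentrated in melanocyte-like cells in control (50.6%) and in DF-like cells in TP (67.2%).

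A further 43 genes of the pathway were examined for context, 41 of them with 50 UMIs over the whole libraries. Of these, 1 was called higher (Lgr5), beside 8.11% of all genes, and 6 lower (Lef1, Ror2, Rspo2, Rspo3, Rspo4 and Sostdc1), which is 14.6% beside 10.8% of all genes. Lgr5, an R-spondin receptor that marks follicle stem cells, had 31.5 and 67.3 CPM, a ratio of 2.14 (2.05 to 2.22), and outer bulge-like cells numbered 611 in control and 1569 in TP. The ratios of the genes called lower were 0.412 for Lef1, 0.422 for Ror2, a WNT5A receptor, 0.494 for Sostdc1, a secreted inhibitor, and 0.445, 0.447 and 0.180 for the R-spondins Rspo2, Rspo3 and Rspo4. In DPC-like cells none of 40 was called higher and 4 were called lower (Ccnd1, Kremen2, Rnf43 and Rspo4), which is 10.0% beside 7.49% of all genes. Rspo4, an R-spondin that strengthens WNT signalling, had 383 CPM in control and 115 CPM in TP, a ratio of 0.302 (0.282 to 0.322). Rnf43, a ligase that removes frizzleds and a target of the pathway, had a ratio of 0.272 (0.200 to 0.364), and Ccnd1, which encodes cyclin D1, one of 0.409 (0.353 to 0.473). Lef1, the transcription factor, had 1143 and 1055 CPM there, a ratio of 0.922 (0.899 to 0.947), against 0.412 over the whole libraries. The Ndnf cluster, of which Rspo4 is a leading gene, went from 2310 of 4165 DPC-like cells to 328 of 1665. Inside it 2 of 38 were called lower, Rnf43 and Znrf3 (5.26% beside 5.62% of all genes), and not Rspo4 or Ccnd1. In the a/Adgrb3 cluster 3 of 38 were called lower, Ccnd1, Rnf43 and Rspo4 (7.89% beside 6.85%). In hair matrix-like cells 1 of 37 was called higher (Lgr5), beside 1.45% of all genes, and 4 lower (Nkd2, Ror1, Rspo3 and Sostdc1), which is 10.8% beside 3.99%, with Ror1, a relative of Ror2, at 410 and 156 CPM, a ratio of 0.380 (0.332 to 0.434). Nkd2, a relative of Nkd1, had a ratio of 0.266 (0.171 to 0.399) in those cells. Rspo3 and Sostdc1 were low there, at 13.6 and 39.9 CPM in control against 1749 and 3902 CPM in DPC-like cells, and the part of free RNA in their calls was not tested.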

How the data were processed

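The authors sequenced 3′ libraries of the control and TP pools, 1 each, and ran Cell Ranger 8.0.1 against mm10, per the submitters' processing notes. The deposited values are whole-number UMI counts per gene and barcode, without normalization. Everything else was computed here. Barcodes had to show between 200 and 8000 genes and no more than 10% mitochondrial UMIs. The DoubletFinder procedure was rewritten and the top 7.5% of barcodes per library were removed (3168 in control, 1503 in TP). Seurat 5.3.0 (R 4.3.3) gave reciprocal PCA integration of 2000 variable genes, 30 components and clusters at resolution 1. Members and other WNT pathway genes were kept out of the clustering genes. A cluster took a class name where its marker score reached 1.25 with at least 3 markers detected. It stayed unnamed where another class had more markers among its 10 leading genes. A cluster of low depth also stayed unnamed where its leading genes held no marker of the class. Clusters whose second class scored 1.75 were split at resolution 0.3. These limits were set after clusters were seen. The 6 unnamed clusters held 35.5% of control and 15.1% of TP cells. The members, lists and thresholds were chosen with earlier results of these data known.

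Counts were summed per class. Python 3.11.15 with scipy 1.17.1 gave intervals and edgeR 4.0.16 gave TMM factors. Members with 200 UMIs are given over whole libraries. Members are named in a class with 50 UMIs where the ratio was at least 2 or at most 0.5 and its interval left out 1, or where the class held their highest level. Other members are named for comparison between sets or where a count had to be broken down. Thinning to 1000 UMIs left out 5362 control and 873 TP cells. Alternatives were other scaling, minimum counts, barcodes, doublets, resolutions, cluster weights and log means. The procedure was checked on simulated counts.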

Additional observations from a re-analysis of the deposited data

Results flagged for a closer look

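The TP-over-control ratio of a member lay on opposite sides of 1, past 2-fold each way, in the following pairs of classes. The quotient of the ratios measures how far apart they are. None of these differences was tested, since each group was 1 library.

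Dkk2 had a ratio of 4.36 in DPC-like cells and 0.337 in DSC-like cells, a quotient of 12.9. Without the Gpc5 cluster the DPC-like ratio was 0.996. Dkk2 in IFE basal-like cells had a ratio of 2.88, on 8 control and 48 TP UMIs, which against DSC-like cells gave a quotient of 8.55. Wnt16 had a ratio of 6.61 in DPC-like cells, on 15 and 78 UMIs, and 0.311 in IFE suprabasal-like cells, a quotient of 21.2. Wnt6 had a ratio of 2.39 in DPC-like cells and 0.310 in IFE suprabasal-like cells, a quotient of 7.70. With the clusters of the DPC-like class weighted as in control the Wnt6 ratio was 1.21.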

How the results depend on the processing

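Over whole libraries, the 2 members called higher became 4 with TMM scaling, 1 with all deposited barcodes and 1 with doublets kept. The 7 called lower became 4 with TMM scaling, all of them among the 7. With clusters weighted as in control 3 were called lower, of which Wnt2b alone was among the 7, while Sfrp2 and Sfrp4 were added, and 2 were called higher, Dkk4 and Wnt8a in place of Dkk2 and Wnt7a. In DPC-like cells the 3 called higher became 1 and the 7 called lower became 4 with the clusters of the class weighted as in control, Axin2, Fzd5 and Wnt10b from among the 7 and Sfrp2 added. In the Ndnf cluster the 3 called lower became 1 with TMM scaling. The cause of these moves was not tested beyond each alternative's own construction. The minimum count, other resolutions and the limit to cells with at least 1000 UMIs kept these counts within 1.5 times. That compares the numbers of calls, not which members were called. At resolution 0.5 the Gpc5 cluster, on which the Dkk2 and Wnt6 calls leaned, carried no name and was not part of the DPC-like class. Among ratios past 2-fold, that of Frzb over whole libraries crossed 1, to 1.03 with control weights, and that of Dkk2 in DPC-like cells to 0.996 without the Gpc5 cluster, an alternative chosen after seeing the data. Dividing the a/Adgrb3 cluster by the clusters of resolution 0.5 or 2, chosen after seeing the data, and weighting the pieces as in control, left Wif1, Sfrp2, Wnt5a and Dkk3 short of the fold at both, and Sfrp1 (0.526), Axin2 (0.672) and Fzd6 (0.588) short of it at 0.5. Of the recomputed ratios of 94 named results, 218 moved by less than counting error, 176 by more, and the 2 of Frzb and Dkk2 given here crossed 1 from past 2-fold. The log means over cells moved 55 of these ratios by more than counting error and 10 by less. In all, 36 values for 29 results lay on the other side of 1 than the value reported, most of them for ratios short of 2-fold. TMM scaling moved Fzd1, Fzd10, Fzd2 and Fzd7 in hair matrix-like, Dkk3 and Wnt3a in IFE basal-like cells, Dkk4 over whole libraries, Fzd10os in the a/Adgrb3 cluster and Nkd1 in the Ndnf cluster across 1. No paired analysis was possible because each group was 1 library.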
